A study of Mus musculus with 12 samples.

Results

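The matrix metalloproteinases (MMPs) and tissue inhibitors of metalloproteinases (TIMPs) are described here across 12 mouse mammary tumours. The members were 10 named genes, Mmp2, Mmp3, Mmp9, Mmp10, Mmp12, Mmp13, Mmp14, Mmp19, Timp1 and Timp2, taken from the 35944 genes to which the quantified transcripts belonged. All 10 members passed the count filter (at least 10 reads in at least 3 libraries), which 15459 genes passed. No measured value entered the choice of these names as a rule, but the set was proposed with earlier results of these data known.

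Each library was made from polyadenylated RNA of 1 tumour of the mouse mammary carcinoma line 4T1. Female BALB/c mice of 6 to 8 weeks received 100000 cells under the skin, and RNA was taken on day 21. From day 5, extracellular vesicles (EVs, membrane vesicles that cells release) were injected around the tumour every 2 days at 3 µg per injection. Every EV came from the mouse endothelial line MS-1 and had been electroporated with a miRNA mimic, so that the control tumours received loaded EVs too.

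The 4 groups of 3 tumours are labelled by the mimic. It was cel-miR-67, a nematode miRNA, in the ctrl tumours, and the other groups, named by their mimics, received miR-222-3p, miR-183-5p and miR-142-5p. The labels do not say whether the 3 tumours of a group came from separate experiments, so that p-values measure the spread between these 12 tumours. The epithelial markers of the carcinoma cells were present in every tumour, with Epcam at 69.7 to 125 TPM and Krt8 at 481 to 732 TPM. TPM, the share of all transcripts scaled to a fixed total, is a level per unit of transcript length, and all levels compared between genes below are TPM. In bulk tumour RNA, fewer cells of a type and less RNA per cell cannot be told apart.

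MMPs are zinc-dependent endopeptidases that are made as inactive proenzymes and cleave components of the extracellular matrix, growth factors and cytokines. TIMPs bind the active site of MMPs and inhibit them. In tumours, MMPs are produced by carcinoma cells as well as by fibroblasts, macrophages and neutrophils, and transcription of several of them is known to respond to AP-1, a dimer of Fos and Jun family proteins.

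Libraries stood apart in 3 ways that touch the results. The summed level of 8 skeletal muscle genes was 373.6 TPM in miR-183-5p tumour 3 and between 13.8 and 26.0 TPM in the other 11 tumours. The summed level of 6 T cell genes was 212 TPM in miR-142-5p tumour 3 and between 27.1 and 83.9 TPM elsewhere. In 4 libraries, miR-183-5p tumour 3 and the 3 miR-222-3p tumours, the mitochondrial pseudogene Gm28661 held less than 1% of the reads assigned to it or to mt-Co2, against at least 7.13% in the other 8. These are called the smaller and the larger library set, and what sets them apart was not tested.

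Mmp13, Mmp12, Mmp3 and Mmp10 belong to the MMP gene cluster of mouse chromosome 9 and lie on its plus strand (GRCm38). They are not all adjacent, since Mmp1b lies partly between Mmp12 and Mmp3, and Mmp1a lies between Mmp3 and Mmp10. Mmp13 spans chr9:7272514-7283331, Mmp12 chr9:7344381-7369499, Mmp3 chr9:7445822-7455975 and Mmp10 chr9:7502352-7510240. The other members lie elsewhere, Mmp9 on chromosome 2, Mmp2 on 8, Mmp19 on 10, Timp2 on 11, Mmp14 on 14 and Timp1 on X. Promoter windows of 300 bases from RefSeq (GRCm38.p6) were found for 7 of the 10 members. Stretches of 120 bases around the annotated start are shown for the clustered genes, because these 4 windows share 2 motifs, and for Mmp14, whose level varied least between tumours, because its window holds neither. Capitals mark the AP-1 motif TGANTCA, which is its own reverse complement, and the TATA box motif TATAAA, searched on both strands. The motifs did not overlap.
Mmp3, chr9:7445722-7445841, plus strand: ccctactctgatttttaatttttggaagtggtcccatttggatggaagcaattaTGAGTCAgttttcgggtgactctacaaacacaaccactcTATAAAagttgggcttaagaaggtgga
Mmp10, chr9:7502242-7502361, plus strand: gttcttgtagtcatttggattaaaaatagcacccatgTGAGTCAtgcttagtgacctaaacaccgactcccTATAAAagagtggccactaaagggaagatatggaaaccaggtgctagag
Mmp13, chr9:7272414-7272533, plus strand: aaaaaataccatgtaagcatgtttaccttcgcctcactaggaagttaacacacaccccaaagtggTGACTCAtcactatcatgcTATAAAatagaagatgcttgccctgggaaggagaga
Mmp12, the second of its 2 annotated starts, chr9:7347274-7347393, plus strand: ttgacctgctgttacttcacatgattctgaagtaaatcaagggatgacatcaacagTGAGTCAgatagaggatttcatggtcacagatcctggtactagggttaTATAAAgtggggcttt
Mmp14, chr14:54431498-54431617, plus strand: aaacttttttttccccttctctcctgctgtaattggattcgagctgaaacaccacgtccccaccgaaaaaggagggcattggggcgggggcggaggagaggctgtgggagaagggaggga

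The AP-1 motif began 46 bases upstream of the annotated start in Mmp3, 63 in Mmp10, 35 in Mmp13 and 44 at the second start of Mmp12. TATAAA began 7 bases upstream in Mmp3, 29 in Mmp10 and 16 in Mmp13, but 4 bases downstream of the second start of Mmp12. Distances are to annotated starts, and the starts used in these tumours were not tested. Neither motif was in the windows of Mmp14, Timp1 and Timp2 or at the other start of Mmp12. Of all 32851 promoter windows of this length, 7.81% held TGANTCA and 13.6% held TATAAA. A match describes letters in a window and not a bound site.

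The mature miRNAs matching the injected mimics are shown next, because matches to their seeds (bases 2 to 8, in capitals) were looked for in the 3′ UTRs of the members. Their sequences are those RefSeq gives for the mouse, and the sequence of cel-miR-67 was not used here.
miR-142-5p (mmu-miR-142a-5p): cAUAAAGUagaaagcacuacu
miR-183-5p: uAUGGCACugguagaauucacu
miR-222-3p: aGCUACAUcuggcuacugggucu

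The 3 seeds differ from one another. A 7mer-m8 match (bases 2 to 8) or 8mer match (the same, followed by A) was found in 2 of the 10 members, searched in the most abundant protein-coding transcript of each gene. The stromelysin gene Mmp10 held a miR-142-5p match, and Mmp19 held 2 miR-183-5p matches. No member held a match to the miR-222-3p seed. Among 14599 genes searched in the same way, 14.2% held a miR-142-5p match, 9.3% a miR-183-5p match and 9.56% a miR-222-3p match. The 3′ UTRs of the members ran from 101 bases (Timp1) to 2630 bases (Timp2), against a median of 960 over the genes searched. Only those of Timp2, Mmp19 and Mmp13 were longer than this median, and the shares were not adjusted for length. Capitals below mark the match in the transcript strand.
Mmp10, miR-142-5p 7mer-m8, chr9:7510032-7510060, exon 10: catgacttcccacctACTTTATtatgtgt
Mmp19, miR-183-5p 8mer, chr10:128799907-128799936, exon 9: gtgtatgccatatagGTGCCATAgcagatc
Mmp19, miR-183-5p 7mer-m8, chr10:128800474-128800502, exon 9: agccggggaacttctGTGCCATtcctcct

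All 10 members were expressed in every tumour, and their order by mean level ran over a wide range. Timp1, which inhibits most secreted MMPs, had the highest mean level at 353 ± 104 TPM (SD, n = 12). The gelatinase gene Mmp9 followed at 334 ± 182.99 TPM, and exceeded Timp1 in 6 of 12 tumours, so that their order did not hold beyond the spread. Mmp14, which encodes a membrane-anchored MMP, stood at 265 ± 28.9 TPM and above Timp2 (207 ± 31.8 TPM) in 12 of 12 tumours. The collagenase gene Mmp13 (156 ± 66.1 TPM), the macrophage elastase gene Mmp12 (148 ± 46.2 TPM) and the stromelysin gene Mmp3 (132 ± 58.9 TPM) were close together. Mmp13 exceeded Mmp12 in 5 of 12 tumours and Mmp12 exceeded Mmp3 in 7 of 12. Mmp3 exceeded the second stromelysin gene Mmp10 (33.4 ± 29.1 TPM) in 12 of 12 tumours. The gelatinase gene Mmp2 (23.7 ± 7.69 TPM) and Mmp19 (16.6 ± 2.51 TPM) were lowest, and Mmp10 exceeded Mmp2 in 7 of 12 tumours. The smallest number of reads behind any of these values was 145, for Mmp10 in miR-142-5p tumour 2, and the largest was 22879, for Mmp9 in miR-222-3p tumour 3. Each level is a sum over all annotated transcripts of the gene. On average, Mmp12-204, annotated as a target of nonsense-mediated decay, held 70.2 TPM of Mmp12. The processed transcript Mmp9-204 held 112 TPM of Mmp9. The main protein-coding transcripts Mmp9-201 and Mmp14-201 had means of 216 and 243 TPM, the reverse of the order of these genes.

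**Figure D1:**
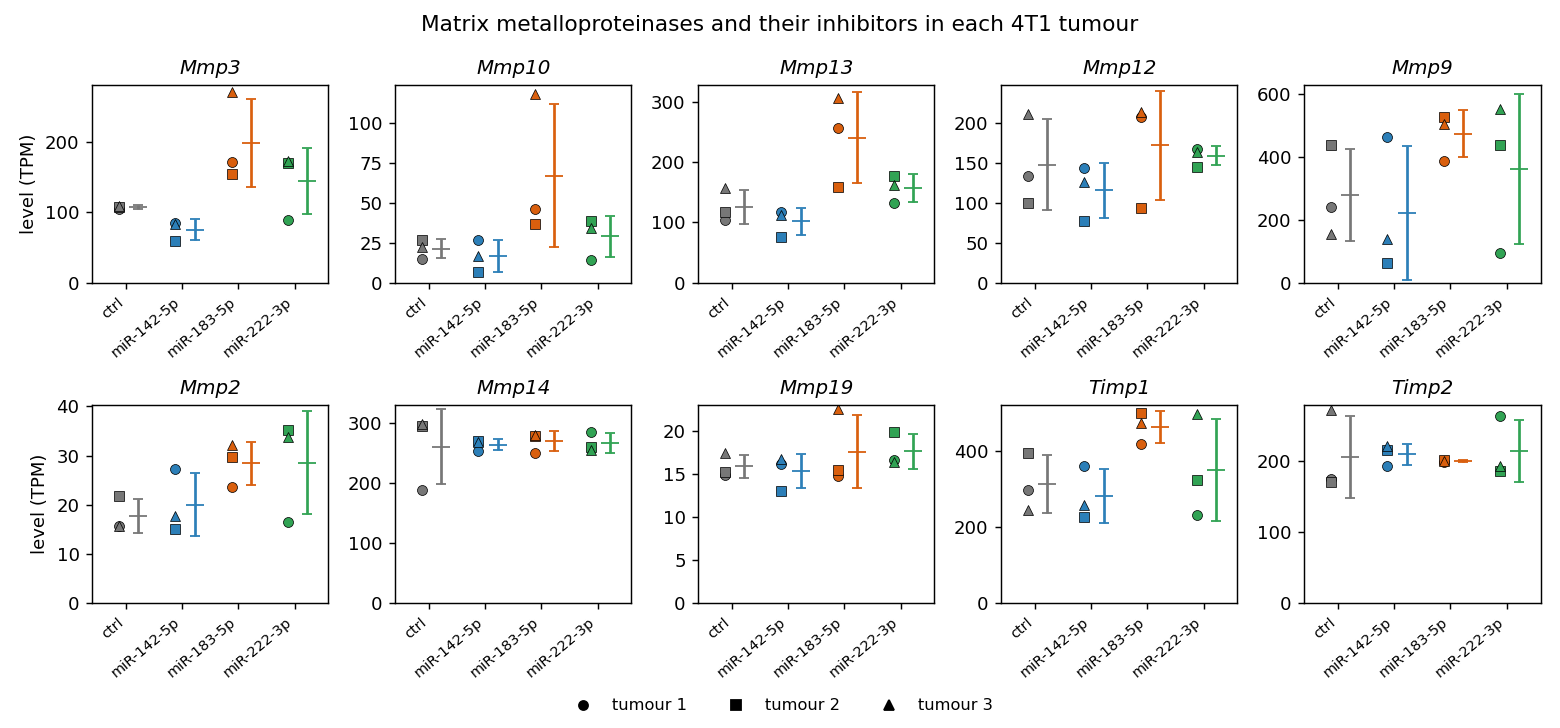
Level in TPM (vertical axes, from 0) of each of the 10 members in each tumour, by group (horizontal axes). Circles, squares and triangles are tumours 1, 2 and 3, and the bar beside them is the mean with its SD (n = 3). Mmp3, Mmp10, Mmp13 and Timp1 are higher in every miR-183-5p tumour than in every ctrl and every miR-142-5p tumour, while Mmp14 and Timp2 overlap in all groups.

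The members fell into genes that varied strongly between tumours and genes that hardly varied. Among 11542 genes with a mean normalised count of at least 100, the median SD between tumours was 0.19 on the log2 scale. The SD of Mmp9 was 1.13 and that of Mmp10 was 1.06, above those of 99.6% and 99.4% of these genes. Mmp3 (0.63), Mmp13 (0.56), Mmp2 (0.51), Timp1 (0.47) and Mmp12 (0.47) were also above at least 94.0% of them. Mmp14 had an SD of 0.14 and Timp2 of 0.17, both below the median. The share of a member's variance between tumours that lay between the 4 groups was 71.8% for Mmp13, 69.7% for Mmp3 and 54.7% for Mmp10, while it was 27.1% for Mmp9 and 3.4% for Timp2. The median over the same genes was 19.96%. Mmp9 was thus the most variable member, while Mmp3, Mmp10 and Mmp13 were the members whose variance lay mostly between groups.

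To learn whether the members differed with the miRNA the EVs carried, group differences were tested gene by gene with DESeq2 over all 12 libraries. When all 4 groups were compared at once, Mmp13 and Mmp3 passed the threshold (likelihood ratio test with Benjamini-Hochberg adjustment, adjusted p = 0.0104 and 0.0151). Without miR-183-5p tumour 3 neither passed (adjusted p = 0.166 and 0.0935), Mmp13 did not without miR-183-5p tumour 1 (0.0608), and Mmp3 did not without miR-142-5p tumour 3 (0.115). These 2 of 10 members compare with 0.0596% of all genes tested. At an unadjusted p under 0.05, Mmp10 joined them (3 of 10 members, against 4.73% of all genes). Mmp13 and Mmp3 ranked the second and the fourth by p-value of all genes. With edgeR's quasi-likelihood test, 0 genes passed the adjusted threshold in this comparison and 532 had an unadjusted p under 0.05, among them 3 members.

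Members passed the threshold in 1 of the 6 contrasts between groups, that of miR-183-5p against miR-142-5p tumours, in which Mmp3 and Mmp13 rose. Of the 8 genes that passed the threshold in this contrast, Mmp13 and Mmp3 had the lowest p-values. The 2 of 10 members called compare with 0.0519% of all genes tested. The other 6 were Rusc2, Hp, Nexn, Fads3, Blnk and Col14a1, named here after their values were seen. A total of 4 members had an unadjusted p under 0.05 (7.95% of all genes), and in 4 members the miR-183-5p tumours did not overlap the miR-142-5p tumours (12.3% of all genes). The median log2 difference of the 10 members was 0.65, against -0.003 for all genes.

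Mmp3 encodes stromelysin-1, which degrades proteoglycans, laminin and fibronectin and activates other proMMPs. Its level was 171, 155 and 271 TPM in miR-183-5p tumours 1 to 3 and 85.2, 58.7 and 82.9 TPM in miR-142-5p tumours 1 to 3. Every miR-183-5p tumour lay above every miR-142-5p tumour, and miR-183-5p tumour 3 was the highest of all 12. The normalised count was 5361 ± 1690 (SD) against 2025 ± 425, a 2.65-fold difference (log2 1.40, SE 0.28, DESeq2 adjusted p = 0.00301).

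Mmp13 encodes collagenase-3, which cleaves fibrillar collagen. Its level was 257, 158 and 306 TPM after miR-183-5p-EVs, as against 117, 75.7 and 112 TPM after miR-142-5p-EVs. These groups did not overlap either, and miR-142-5p tumour 2 was again the lowest of all 12. The normalised count was 9990 ± 3050 against 4213 ± 1015, a 2.37-fold difference (log2 1.25, SE 0.25, DESeq2 adjusted p = 0.00301).

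Mmp10 encodes stromelysin-2, a close relative of stromelysin-1. Its level was 45.8, 36.8 and 118 TPM after miR-183-5p-EVs, as against 26.6, 6.34 and 16.8 TPM after miR-142-5p-EVs. The groups did not overlap, but miR-183-5p tumour 3 stood far above the other tumours of its group. The difference was 4.01-fold (log2 2.00, SE 0.63) with an unadjusted p of 0.00155, and it did not pass the threshold (DESeq2 adjusted p = 0.173). Without miR-183-5p tumour 3 the log2 difference was 1.31 (unadjusted p = 0.0424, DESeq2 adjusted p = 0.9998).

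Timp1 was 419, 502 and 475 TPM after miR-183-5p-EVs, as against 361, 226 and 259 TPM after miR-142-5p-EVs. The groups did not overlap. The difference was 1.65-fold (log2 0.72, SE 0.29) with an unadjusted p of 0.0144, and the DESeq2 adjusted p was 0.432.

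The 6 remaining members overlapped between these groups, and none had an unadjusted p under 0.05. Mmp9 had the largest difference among them (log2 1.07) and by far the widest 95% interval, from -0.56 to 2.69. Mmp12 differed by log2 0.57 (interval -0.05 to 1.19), Mmp2 by 0.51 (-0.11 to 1.12) and Mmp19 by 0.21 (-0.15 to 0.57). For Mmp14, whose protein activates proMMP2 at the cell surface, the interval was -0.22 to 0.30. For Timp2, which takes part in that activation, it was -0.37 to 0.27.

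**Figure D2:**
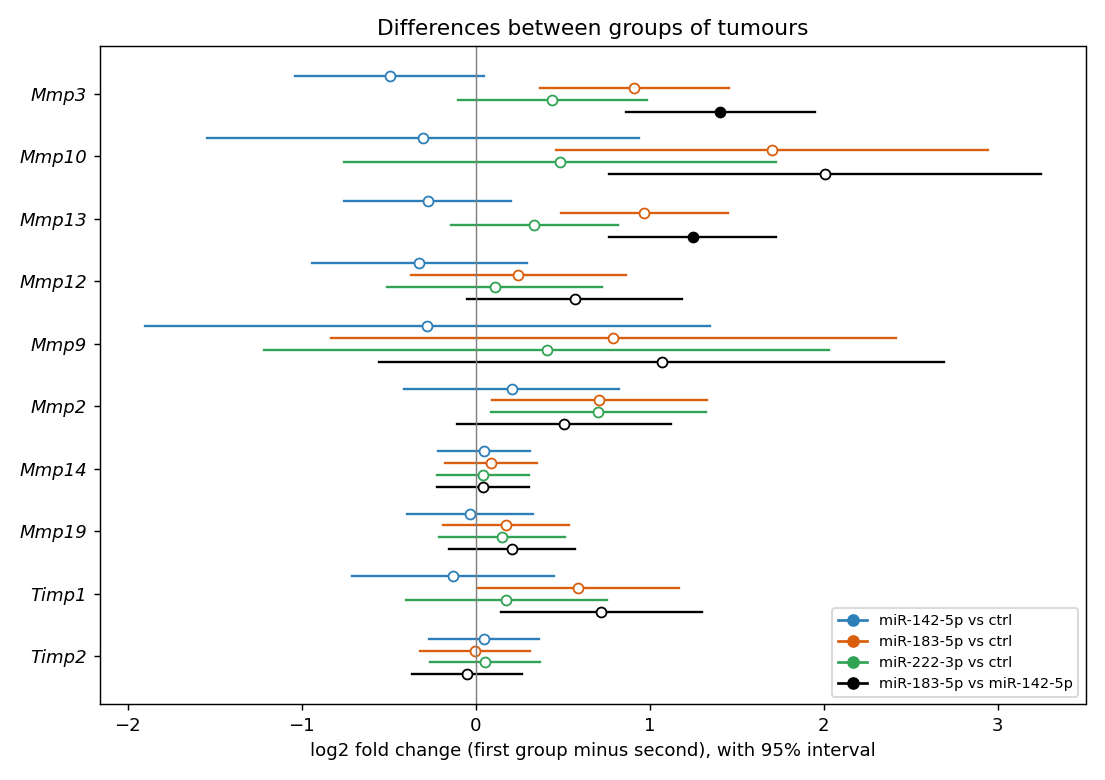
Log2 fold change of each member (rows) in the 3 contrasts against ctrl and between the miR-183-5p and miR-142-5p tumours, from DESeq2 over 12 libraries. Points are estimates, lines are 95% intervals, and filled points have an adjusted p under 0.05. The filled points are Mmp3 and Mmp13 between the miR-183-5p and miR-142-5p tumours, and the intervals of Mmp14 and Timp2 span 0 in each of the 4 contrasts.

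The calls of Mmp3 and Mmp13 rested on 1 library and on the test. The skeletal muscle genes stood out in miR-183-5p tumour 3, where the summed level of 10 macrophage genes was also the lowest. Without that tumour, the log2 differences were 1.12 and 1.03 and the adjusted p was 0.167 for both genes (DESeq2). The directions held, but neither gene was called. With the library set as a term in the fit the log2 differences were 1.12 and 1.03 and the DESeq2 adjusted p was 0.155 for both. This is no separate check, since only the miR-183-5p group holds libraries of both sets. In this contrast the term sets aside miR-183-5p tumour 3, much as leaving it out does. By edgeR's quasi-likelihood test the unadjusted p was 0.000265 for Mmp3 and 0.000213 for Mmp13, and the adjusted p was 0.548 for both, in a contrast in which edgeR called 0 genes and gave 1128 genes an unadjusted p under 0.05. Leaving out any other single tumour of these 2 groups kept both calls, and without miR-142-5p tumour 1 the adjusted p also fell under the threshold for Mmp10 (0.00797) and Timp1 (0.039), in a fit that called 408 genes.

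**Figure D3:**
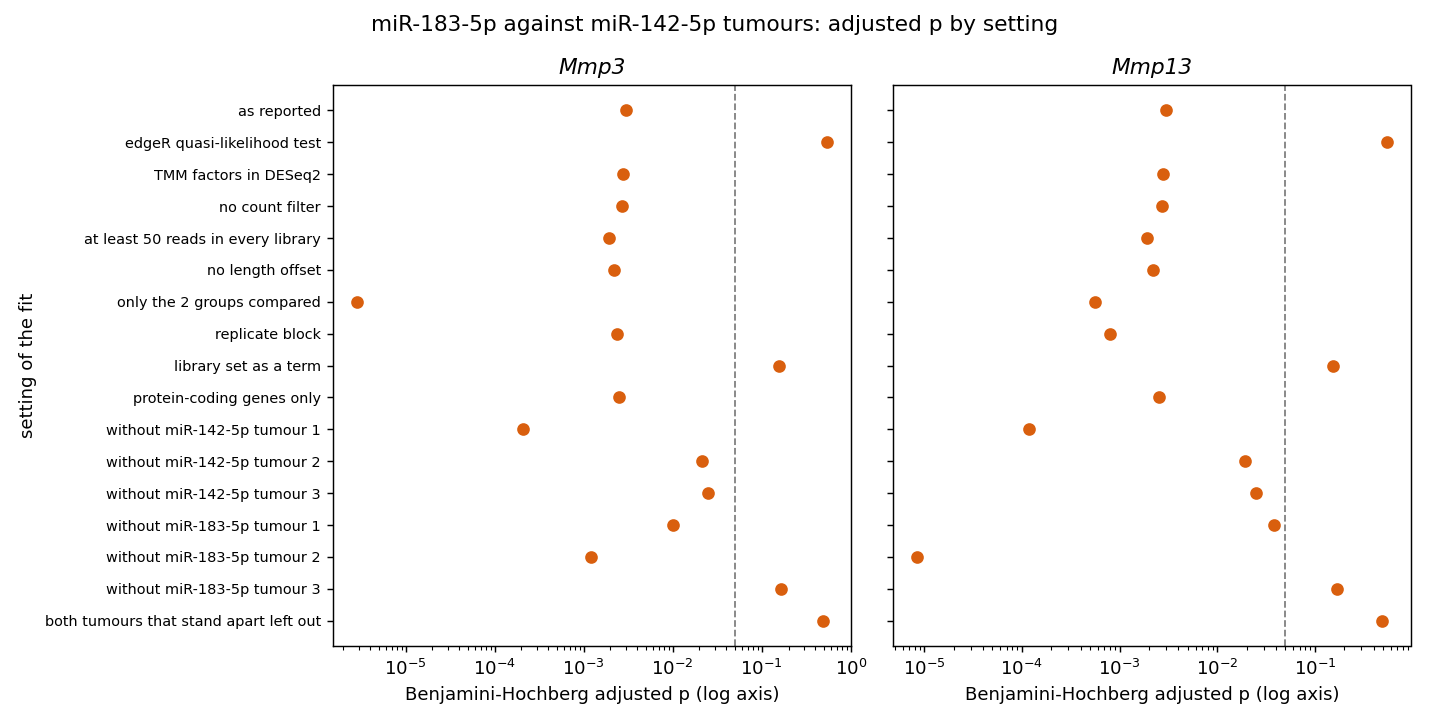
Benjamini-Hochberg adjusted p of Mmp3 (left) and Mmp13 (right) between the miR-183-5p and miR-142-5p tumours, on a log axis, for the fit as reported and each other setting (rows). The dashed line is the threshold of 0.05, and the edgeR test, the library set term, the fit without miR-183-5p tumour 3 and the fit without both tumours that stand apart lie to its right in both panels. The library set term and both of these leave-out fits all set aside miR-183-5p tumour 3.

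Against ctrl, miR-183-5p tumours showed the same members at higher levels, but no member passed the threshold. DESeq2 called 0 of 10 members and 0.0% of all genes, and edgeR called 0 members too. At an unadjusted p under 0.05 there were 5 of 10 members, all higher, against 3.22% of all genes (4 members by edgeR). In 5 members the miR-183-5p tumours lay entirely above the ctrl tumours, where 9.17% of all genes did not overlap. The median log2 difference of the members was 0.65, against -0.01 for all genes. Since ctrl tumours enter all 3 contrasts against ctrl, and the miR-183-5p tumours enter this contrast and the last, the contrasts are not independent.

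Mmp13 was 103, 117 and 156 TPM in ctrl tumours 1 to 3. The lowest miR-183-5p tumour, tumour 2 at 158 TPM, was just above the highest ctrl tumour. The difference was 1.956-fold (log2 0.97, SE 0.25) with an unadjusted p of 7.86e-05 and a DESeq2 adjusted p of 0.242, and Mmp13 ranked the fifth of all genes by p-value. Without miR-183-5p tumour 2 the log2 difference was 1.19 and the DESeq2 adjusted p 0.00244, in a fit that called 13 genes. Without miR-183-5p tumour 3 they were 0.75 and 0.9998, and with the library set as a term 0.75 and 0.9999. In this contrast the set term also sets aside tumour 3, since only the miR-183-5p group holds both sets.

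Mmp3 was 104, 108 and 110 TPM in the ctrl tumours. All 3 miR-183-5p tumours lay above them. The difference was 1.88-fold (log2 0.91, SE 0.28) with an unadjusted p of 0.001 and a DESeq2 adjusted p of 0.978. Fitted on the ctrl and miR-183-5p tumours alone, without the spread of the other groups, both genes passed (DESeq2 adjusted p = 0.00739 for Mmp3 and 0.00892 for Mmp13). That fit called 36 of 15459 genes. Without miR-183-5p tumour 3 the log2 difference of Mmp3 was 0.62 (unadjusted p = 0.0275, DESeq2 adjusted p = 0.9998).

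Mmp10 was 14.7, 26.5 and 22.1 TPM in the ctrl tumours, below every miR-183-5p tumour. The log2 difference was 1.70 (SE 0.63, unadjusted p = 0.00724, DESeq2 adjusted p = 0.9998), and it was 1.001 without miR-183-5p tumour 3. Mmp2 was 15.7, 21.7 and 15.6 TPM in the ctrl tumours and 23.6, 29.6 and 32.1 TPM in the miR-183-5p tumours. These groups did not overlap, with a log2 difference of 0.71 (SE 0.31, unadjusted p = 0.0239, DESeq2 adjusted p = 0.9998). Timp1 was 299, 396 and 246 TPM in the ctrl tumours, each below the lowest miR-183-5p tumour at 419 TPM. Its log2 difference was 0.59 (SE 0.29, unadjusted p = 0.0452, DESeq2 adjusted p = 0.9998). For Mmp14 the 95% interval of the difference was -0.18 to 0.35, for Timp2 -0.32 to 0.31 and for Mmp19, whose 3′ UTR holds the miR-183-5p matches shown above, -0.19 to 0.53.

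In the miR-142-5p tumours no member passed the threshold against ctrl. DESeq2 called 0 of 10 members (0.00649% of all genes) and edgeR 0, and 0 members had an unadjusted p under 0.05 by either tool, against 3.56% of all genes by DESeq2. Mmp3 was the exception in that the groups did not overlap (1 of 10 members, against 6.07% of all genes), with 58.7 to 85.2 TPM in the miR-142-5p tumours and 104 to 110 TPM in the ctrl tumours. Its log2 difference was -0.49 (95% interval -1.04 to 0.05, unadjusted p = 0.0745, DESeq2 adjusted p = 1.0). For Mmp10, whose 3′ UTR holds the miR-142-5p match, the difference was -0.30 (-1.55 to 0.94). Of the 10 members, 7 had lower and 3 higher estimates than ctrl.

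In the miR-222-3p tumours, 0 of 10 members were called by DESeq2 (0.026% of all genes) and 0 by edgeR. Only Mmp2 had an unadjusted p under 0.05 (1 of 10 members, against 2.29% of all genes), and the groups overlapped for every member (5.5% of all genes did not). Mmp2 was 16.4, 35.3 and 33.9 TPM in the miR-222-3p tumours, so that tumour 1 lay at the ctrl level and the others above it. The log2 difference was 0.70 (SE 0.31, unadjusted p = 0.0253, DESeq2 adjusted p = 0.99996). With the library set as a term it was 0.43 (DESeq2 unadjusted p = 0.455), and all 3 miR-222-3p libraries belong to the smaller set. The term rests on the miR-183-5p tumours alone, as no other group holds both sets. Tumour 1 had the lowest level of its group for Mmp2, Mmp3, Mmp9, Mmp10, Mmp13 and Timp1.

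In the last 2 contrasts the miR-222-3p tumours were compared with the other miRNA groups. The level of Mmp3 was 89.9, 170 and 174 TPM in the miR-222-3p tumours and that of Mmp13 was 131, 177 and 163 TPM. In TPM both genes were higher in each miR-222-3p tumour than in any miR-142-5p tumour, while in normalised counts the groups overlapped for every member in both contrasts. Against miR-222-3p, the miR-183-5p tumours differed in Mmp13 at an unadjusted p under 0.05 (log2 0.63, SE 0.25, unadjusted p = 0.00999, DESeq2 adjusted p = 0.9996), and 0 of 10 members were called (0.0324% of all genes) or did not overlap (9.06% of all genes). With the library set as a term that log2 difference was 0.99, but the term then compares miR-183-5p tumour 3 alone with the 3 miR-222-3p tumours. Without miR-183-5p tumour 3 the log2 difference was 0.42 (DESeq2 unadjusted p = 0.107). The Mmp13 difference is that of 1 of 10 members, against 3.24% of all genes. By edgeR 2 members had an unadjusted p under 0.05 and 0 were called. The miR-142-5p tumours against miR-222-3p differed in Mmp3 (log2 -0.93, SE 0.28, unadjusted p = 0.000743, DESeq2 adjusted p = 0.599) and Mmp13 (log2 -0.61, SE 0.25, unadjusted p = 0.0123, DESeq2 adjusted p = 0.9999). These were 2 of 10 members, against 3.59% of all genes, while 0 of 10 were called (0.0389% of all genes, and 0 by edgeR) and 0 of 10 did not overlap (6.2% of all genes). With the library set as a term the differences of Mmp3 and Mmp13 were -0.20 and -0.04, and since the smaller set holds every miR-222-3p library and 1 other, miR-183-5p tumour 3, the effects of set and group can hardly be told apart.

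Summed over the 8 MMP members, the level was 1296 to 1749 TPM in the miR-183-5p tumours and 577 to 1134 TPM in the miR-142-5p tumours. The ctrl tumours held 815 to 1123 TPM and the miR-222-3p tumours 816 to 1392 TPM. Mmp3, Mmp10 and Mmp13 together made up 27.01% to 39.8% of that sum in the miR-183-5p tumours and 20.2% to 27.2% in the miR-142-5p tumours. The ratio of the MMP sum to the sum of Timp1 and Timp2 was 2.21 ± 0.38 in the miR-183-5p tumours, 1.66 ± 0.37 in the miR-142-5p tumours, 1.87 ± 0.13 in the ctrl tumours and 2.06 ± 0.44 in the miR-222-3p tumours (SD, n = 3 each), and these ranges overlapped. RNA levels do not give the amount of active enzyme.

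Across the 12 tumours several members varied together. Of the 45 pairs of members, 17 had a Benjamini-Hochberg adjusted permutation p under 0.05 for Pearson's r of log2 normalised counts (two-sided, 100000 resamples), and 13 of these also had one for Spearman's rho. The 3 largest r were those among Mmp3, Mmp10 and Mmp13, while Mmp12, the remaining member in the chromosome 9 cluster, had r of 0.57 to 0.74 with them. Mmp3 and Mmp10 had r = 0.93 and rho = 0.88 (permutation p = 4e-05 and 0.0003, adjusted 0.00045 and 0.003375). Salmon shared out some reads of both genes, and the part of this in their r was not tested. For Mmp10 and Mmp13, r was 0.93 and rho 0.92 (permutation p = 4e-05 and 8e-05, adjusted 0.00045 and 0.0018). For Mmp3 and Mmp13, r was 0.92 and rho 0.86 (permutation p = 4e-05 and 0.00062, adjusted 0.00045 and 0.00558). Without the 2 tumours farthest from the median of the gene named first, these r were 0.85, 0.81 and 0.82. Within the 8 libraries of the larger set they were 0.88, 0.88 and 0.90.

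Mmp9, Timp1 and Mmp2 were also close to one another. For Mmp9 and Timp1, r was 0.92 and rho 0.92 (permutation p = 2e-05 and 6e-05, adjusted 0.00045 and 0.0018). Mmp2 and Mmp9 had r = 0.88 and rho = 0.90 (permutation p = 0.00019 and 0.00016, adjusted 0.00171 and 0.0024), and Mmp2 and Timp1 had r = 0.84 and rho = 0.81 (permutation p = 0.00163 and 0.00235, adjusted 0.0091 and 0.0151). Without the 2 farthest tumours these r were 0.92, 0.88 and 0.93, and within the larger library set 0.93, 0.86 and 0.92. When each tumour was expressed as its deviation from its group mean, these 3 pairs were the ones that passed (r = 0.92, 0.96 and 0.89, adjusted exact permutation p = 0.0347 for each). The pairs of Mmp3, Mmp10 and Mmp13 then had r of 0.77 to 0.90, with adjusted exact permutation p of 0.0608 to 0.0668. These trios were not separate, since 6 of the 9 pairs that join them also passed for both r and rho. They were the pairs of Mmp3 or Mmp10 with Mmp2, Mmp9 or Timp1, with r of 0.78 to 0.83 and rho of 0.76 to 0.82 (permutation p of 0.00025 to 0.0041 and 0.0021 to 0.00637, adjusted 0.00187 to 0.0154 and 0.0151 to 0.0239). Without the 2 farthest tumours their r were 0.66 to 0.83, and within the larger library set 0.58 to 0.88. The pairs of Mmp13 with Mmp2, Mmp9 and Timp1 had r of 0.63 to 0.64 and did not pass. Timp2 had a negative r with 7 of the other members, the lowest with Mmp9 (r = -0.59, rho = -0.41, permutation p = 0.0442 and 0.186, adjusted 0.0903 and 0.288), which did not pass.

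**Figure D4:**
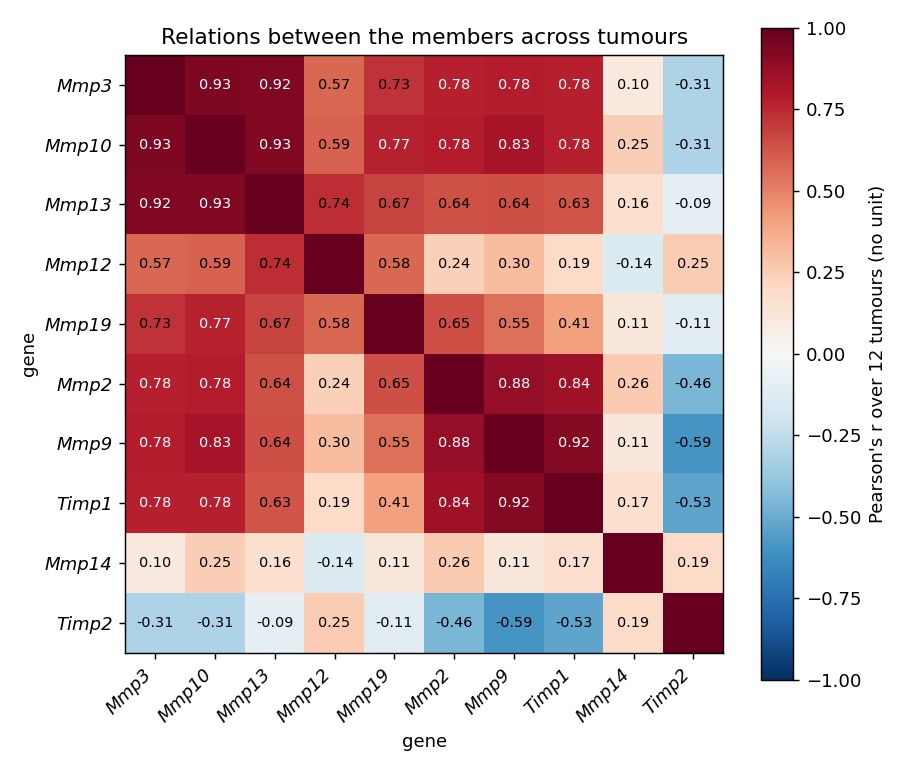
Pearson's r of log2 normalised counts over 12 tumours for each pair of members (rows and columns), as the number and the colour of each cell. Mmp3, Mmp10 and Mmp13 have r of 0.92 to 0.93 with one another, Mmp2, Mmp9 and Timp1 have r of 0.84 to 0.92, pairs that join these trios have r of 0.63 to 0.83, and Mmp14 and Timp2 have no r above 0.26 with any member.

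The genes most like each member were sought among 11333 other protein-coding genes with a mean normalised count of at least 100, as a description with no test. For Mmp3 they were Mmp10, Mmp13 and Plod3 (r = 0.93, 0.92 and 0.91, rho = 0.88, 0.86 and 0.85), so that the 2 most alike genes lay in the same gene cluster. For Mmp13 they were Mmp10, Mmp3 and Dcbld2 (r = 0.93, 0.92 and 0.90, rho = 0.92, 0.86 and 0.89). For Mmp10 they were Adam8, Nid1 and Map2k1 (r = 0.95, 0.95 and 0.94, rho = 0.87, 0.88 and 0.88). Adam8 encodes a membrane metalloproteinase of leukocytes and tumour cells, and Nid1 the basement membrane protein nidogen-1.

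For Mmp9 the most alike genes were Serpinf1, Tmem45a and Ccdc80 (r = 0.98, 0.97 and 0.97, rho = 0.96, 0.90 and 0.92). For Timp1 they were Mfap5, Fbln2 and Exoc3l4 (r = 0.97, 0.97 and 0.96, rho = 0.98, 0.97 and 0.94), of which Mfap5 and Fbln2 encode proteins of elastic fibres. For Mmp2 they were Ass1, Fam198b and Fzd1 (r = 0.96, 0.96 and 0.96, rho = 0.94, 0.90 and 0.91). For Mmp12 they were P3h2, Mxd1 and Clec4d (r = 0.91, 0.89 and 0.87, rho = 0.85, 0.87 and 0.91), of which Clec4d encodes a myeloid lectin. For Mmp19 they were Txndc5, Ccdc71 and Hspa13 (r = 0.90, 0.89 and 0.88, rho = 0.88, 0.79 and 0.61), with r of 0.88, 0.67 and 0.52 without the 2 farthest tumours, and for Timp2 Klhl24, Tcp11l2 and Stra6l (r = 0.92, 0.91 and 0.91, rho = 0.89, 0.96 and 0.87). For Mmp14 they were Gosr1, Maml1 and Snx9 (r = 0.89, 0.87 and 0.86, rho = 0.71, 0.43 and 0.94), but without the 2 tumours farthest from the median of Mmp14 the r of Gosr1 was 0.40 and that of Maml1 0.46.

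Markers of stromal and immune cells also had unadjusted p under 0.05 in the contrasts in which members had them, and their part in the results was not tested. The summed level of 10 fibroblast genes ranged from 1322 to 1447 TPM after miR-183-5p-EVs and was 625 to 1257 TPM in ctrl, 481 to 1112 TPM in miR-142-5p and 612 to 1879 TPM in miR-222-3p tumours. The summed level of 10 macrophage genes had its lowest mean in the miR-183-5p tumours, at 3483, 3244 and 1786 TPM in tumours 1 to 3. It was 4135 to 6791 TPM in miR-142-5p, 3042 to 4657 TPM in ctrl and 2898 to 5033 TPM in miR-222-3p tumours. Thus miR-183-5p tumours 1 and 2 lay within the ctrl and miR-222-3p ranges. Within this list, Adgre1 was lowest in miR-183-5p tumour 3 (12.0 TPM), while Cd68 was not (108 TPM, with 86.4 TPM in ctrl tumour 2). In the miR-183-5p tumours against miR-142-5p, 6 of the 10 macrophage genes had an unadjusted p under 0.05, all lower, and 0 were called. The lowest p-values were those of Csf1r, the receptor of macrophage growth factor (log2 -0.69, unadjusted p = 0.00143), C1qc (log2 -0.58, unadjusted p = 0.00857) and Apoe (log2 -1.08, unadjusted p = 0.0123), and against ctrl Csf1r (log2 -0.44) and C1qb (log2 -0.45) had unadjusted p of 0.0413 and 0.0314. The summed level of 10 neutrophil genes ranged from 1897 to 3072 TPM after miR-183-5p-EVs and was 1044 to 1679 TPM in miR-142-5p, 1066 to 2058 TPM in ctrl and 897 to 2032 TPM in miR-222-3p tumours, and 4 of the 10 had an unadjusted p under 0.05 against miR-142-5p, all higher. They included S100a9 (log2 0.98, unadjusted p = 0.00296), S100a8 (log2 0.93, unadjusted p = 0.0042) and Retnlg (log2 0.95, unadjusted p = 0.00919). S100a8 and S100a9 held most of the neutrophil sum. They were at 963 and 1889 of 3072 TPM in miR-183-5p tumour 1 and at 489 and 974 of 1598 TPM in ctrl tumour 1. Against ctrl, S100a9 (log2 0.68) and S100a8 (log2 0.67) were higher and Camp (log2 -1.08) was lower at an unadjusted p under 0.05. Of the fibroblast genes, Pdgfrb was the one with an unadjusted p under 0.05 against miR-142-5p (log2 0.57, unadjusted p = 0.0369) and Dcn the one against ctrl (log2 0.50, unadjusted p = 0.0114). Every gene of these 3 lists had reads, and the granule gene Mpo of immature neutrophils was at 0.0872 to 0.877 TPM. Summed levels of 8 epithelial genes overlapped between all groups (1650 to 2568 TPM).

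Other marker lists also held genes with an unadjusted p under 0.05 between the miR-183-5p and miR-142-5p tumours. Of 6 T cell genes, 3 had an unadjusted p under 0.05, all lower, with a list median of log2 -1.14, and the T cell sum was 212 TPM in miR-142-5p tumour 3 against 27.1 to 83.9 TPM in the other tumours. They were Cd3d (log2 -1.14, unadjusted p = 0.00983), Cd4 (log2 -2.06, unadjusted p = 0.0163) and Cd3e (log2 -1.19, unadjusted p = 0.0179). Of 4 adipocyte genes tested, Adipoq (log2 1.58, unadjusted p = 0.0123) and Cidec (log2 1.58, unadjusted p = 0.0158) were higher, with a list median of log2 0.86. The skeletal muscle genes Tnnt3 (log2 2.06, unadjusted p = 0.0104) and Myh1 (log2 2.77, unadjusted p = 0.0257) were higher, with a summed level of the list of 374 TPM in miR-183-5p tumour 3 against 13.8 to 25.99 TPM in the other tumours, and Myh1, Tnnt3 and Mylpf had unadjusted p of 0.00205, 0.006 and 0.0191 against ctrl and 0.0014, 0.0204 and 0.0112 against miR-222-3p. No gene of these lists was called. In the miR-222-3p tumours against ctrl, Dcn (log2 0.54, unadjusted p = 0.0054), Ltf (log2 -0.93, unadjusted p = 0.0169), Krt15 (log2 -1.07, unadjusted p = 0.0211) and Cidec (log2 -1.46, unadjusted p = 0.0194) had unadjusted p under 0.05. In the miR-183-5p tumours against miR-222-3p these were Csf1r (log2 -0.52), Ms4a7 (log2 -0.70), S100a9 (log2 0.78), Retnlg (log2 0.80), S100a8 (log2 0.72), Krt15 (log2 1.15) and Cidec (log2 1.25), with unadjusted p of 0.0124 to 0.0433. In the miR-142-5p tumours against miR-222-3p they were Pdgfrb (log2 -0.65, unadjusted p = 0.0175), Krt15 (log2 1.41, unadjusted p = 0.00217) and Cd3d (log2 0.94, unadjusted p = 0.0327).

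Over the 12 tumours, 17 of 90 relations between a member and a marker list had an adjusted permutation p under 0.05. The log2 normalised count of the member was set against the log2 summed TPM of the list. This family of relations was chosen after the data were seen. The fibroblast sum went with Mmp9 (r = 0.92, rho = 0.90, permutation p = 5e-05 and 0.00019, adjusted 0.0021 and 0.00855), Timp1 (r = 0.91, rho = 0.94, permutation p = 7e-05 and 3e-05, adjusted 0.0021 and 0.0027) and Mmp2 (r = 0.89, rho = 0.87, permutation p = 0.00051 and 0.00069, adjusted 0.00641 and 0.0124). Without the 2 tumours farthest from the median of the member, these r were 0.86, 0.88 and 0.90, and within the larger library set 0.91, 0.89 and 0.86. It also went with Mmp10 (r = 0.83, rho = 0.85, permutation p = 0.00045 and 0.00092, adjusted 0.00641 and 0.0138) and Mmp3 (r = 0.80, rho = 0.84, permutation p = 0.00223 and 0.00127, adjusted 0.0201 and 0.0163), with r of 0.86 and 0.74 without the 2 farthest tumours and 0.90 and 0.73 within the larger set. The macrophage sum went against Mmp10 (r = -0.93, rho = -0.82, permutation p = 6e-05 and 0.0019, adjusted 0.0021 and 0.019) and Mmp3 (r = -0.88, rho = -0.81, permutation p = 0.00017 and 0.00225, adjusted 0.00382 and 0.0202). Without the 2 farthest tumours these r were -0.73 and -0.69, and within the larger set -0.86 and -0.77. It also went against Timp1 (r = -0.79, rho = -0.88), Mmp9 (r = -0.79, rho = -0.87), Mmp13 (r = -0.79, rho = -0.67) and Mmp2 (r = -0.71, rho = -0.83), with permutation p for r of 0.00057 to 0.00591 and for rho of 0.00035 to 0.0202 (adjusted 0.00641 to 0.0355 and 0.0105 to 0.114, where rho of Mmp13 did not pass). Their r were -0.60 to -0.76 without the 2 farthest tumours and -0.61 to -0.87 within the larger set. The other 6 relations that passed for r did not pass for rho (adjusted permutation p of 0.056 to 0.13). They were those of the skin keratinocyte sum with Mmp9, Mmp2 and Timp1 (r = 0.86, 0.74 and 0.73) and of the endothelial sum with Timp2, Mmp9 and Timp1 (r = 0.79, -0.78 and -0.75). No relation of the neutrophil or the epithelial sum passed. Within the 8 libraries of the larger set alone, none of the 90 relations had an adjusted permutation p under 0.05. None had one as deviations from group means either, where the lowest adjusted exact permutation p was 0.0694. For Mmp3 and the neutrophil sum, r was 0.55 and rho 0.50 (permutation p = 0.0677 and 0.0979, adjusted 0.193 and 0.252), which did not pass, with r = 0.36 without the 2 farthest tumours and 0.79 within the larger set. The neutrophil sum had a larger r with Mmp12 (r = 0.69, rho = 0.71) and Mmp13 (r = 0.68, rho = 0.63). Their permutation p for r was 0.0142 and 0.0138 (adjusted 0.061 for both), which did not pass either. Without the 2 farthest tumours these r were 0.84 and 0.42, and within the larger set 0.78 and 0.91.

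**Figure D5:**
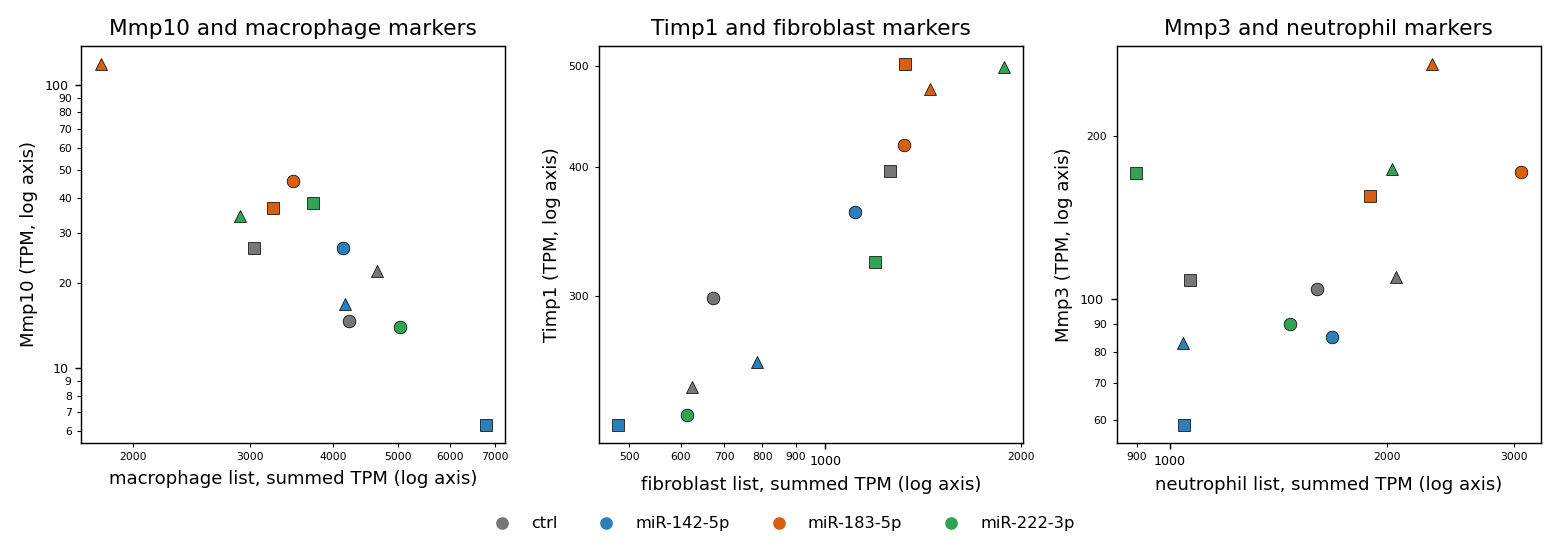
Level of a member (vertical log axes, TPM) against the summed level of a marker list (horizontal log axes, TPM) in each of 12 tumours, coloured by group, with circles, squares and triangles for tumours 1, 2 and 3. Mmp10 falls as the macrophage sum rises (r = -0.93), Timp1 rises with the fibroblast sum (r = 0.91), and Mmp3 scatters more widely against the neutrophil sum (r = 0.55). Each r was computed from the log2 normalised count of the member, not the TPM plotted, and the log2 summed TPM of the list.

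The other MMPs and TIMPs were a list of 17 genes, of which 12 passed the count filter. Mmp11 (28.5 to 47.6 TPM) and Timp3 (16.7 to 25.9 TPM) were the most abundant, and Mmp8, the neutrophil collagenase gene of the same cluster, was at 2.18 to 7.35 TPM. Mmp7 had 0 reads in all 12 libraries. None of the 12 passed the threshold in any of the 6 contrasts. Between the miR-183-5p and miR-142-5p tumours, Mmp23 was at 1.64-fold (log2 0.72, SE 0.36, unadjusted p = 0.0442) and Mmp28 at 0.63-fold (log2 -0.67, SE 0.24, unadjusted p = 0.00448), with adjusted p of 0.599 and 0.279 (DESeq2). The median log2 difference of the 12 genes in this contrast was 0.20. Mmp11 and Timp3 had 95% intervals of -0.43 to 0.29 and -0.30 to 0.39 there. In the miR-183-5p tumours against ctrl, Mmp23 differed by log2 0.75 (SE 0.36, unadjusted p = 0.0357, DESeq2 adjusted p = 0.9998).

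Of 18 genes that activate, dock or inhibit MMPs, 17 were tested and none was called in any contrast. In the miR-183-5p tumours against miR-142-5p, 3 had an unadjusted p under 0.05, all higher, with a median of log2 0.39 over the 17. They were Serpinb2, the plasminogen activator inhibitor 2 gene (log2 2.14, SE 0.74, unadjusted p = 0.00404), A2m, which encodes the general proteinase trap alpha-2-macroglobulin (log2 1.89, SE 0.76, unadjusted p = 0.0127), and Lcn2, whose product binds MMP9 (log2 1.17, SE 0.50, unadjusted p = 0.0196). The normalised counts of Serpinb2 were low, at 69.6 ± 12.0 against 15.9 ± 12.0. Against ctrl, Serpinb2 (log2 2.23, SE 0.74, unadjusted p = 0.0027) and A2m (log2 1.51, SE 0.75, unadjusted p = 0.0455) had unadjusted p under 0.05, with DESeq2 adjusted p of 0.9998.

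The 15 ADAM and ADAMTS proteinases, relatives that shed membrane proteins or cleave proteoglycans, were all tested and none was called. Between the miR-183-5p and miR-142-5p tumours 5 had an unadjusted p under 0.05, all higher, and the list's median was log2 0.25. Adam12 came the first by p-value (log2 1.13, SE 0.43, unadjusted p = 0.0088), followed by Adam8 (log2 0.59, SE 0.24, unadjusted p = 0.0138) and Adamts4 (log2 0.57, SE 0.25, unadjusted p = 0.0209), with DESeq2 adjusted p of 0.376 to 0.491. Against ctrl, Adam19 (log2 0.51, SE 0.19, unadjusted p = 0.00693) and Adam8 (log2 0.47, SE 0.24, unadjusted p = 0.0489) had unadjusted p under 0.05. Adamts15 was lower in the miR-183-5p and miR-142-5p tumours than in the miR-222-3p tumours, without overlap (log2 -1.14 and -1.10, unadjusted p = 0.00449 and 0.00672, DESeq2 adjusted p = 0.9996 and 0.924), and Adam17 was higher in the miR-183-5p than in the miR-222-3p tumours (log2 0.28, SE 0.10, unadjusted p = 0.00441).

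Of 15 genes for AP-1, ETS and NF-kB factors and their regulators, 15 were tested and none was called. Between the miR-183-5p and miR-142-5p tumours 3 had an unadjusted p under 0.05, all higher, with a list median of log2 0.12. Fosl1, which encodes the AP-1 protein Fra-1, had the lowest p (normalised counts 797 ± 91.6 against 512 ± 91.9, log2 0.64, SE 0.22, unadjusted p = 0.00317, DESeq2 adjusted p = 0.24). Its groups did not overlap. Runx2 differed by log2 0.33 (unadjusted p = 0.0252) and Nfkbia by 0.47 (unadjusted p = 0.0306). Jun had an unadjusted p under 0.05 in the miR-183-5p tumours against miR-222-3p (log2 0.46, unadjusted p = 0.0172). Against ctrl no gene of the list had an unadjusted p under 0.05 in the miR-183-5p tumours. In the miR-142-5p tumours against ctrl, Fosl1 was the only gene of the list with a DESeq2 unadjusted p under 0.05, and it was lower.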

How the data were processed

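The authors quantified stranded mRNA libraries of 12 tumours with Salmon on GRCm38, per the submitters' processing notes. The study's methods name a Salmon version and an Ensembl release for these libraries, but the deposited tables carry another release, so that the release used is not certain. The tables the authors deposited hold an estimated count of reads, a TPM value and an effective length for each of 118783 transcripts. Identifiers were matched to GENCODE M21, and 116710 (98.3%) matched 35944 genes. Unmatched transcripts held 0.633% to 0.671% of reads. Library totals were 20285968 to 27021401 estimated reads, so that counting error was small beside the spread between tumours. The strand setting of the quantification is not given in the sources used here, and 789 of 3533 exonic bases of Mmp19 lie antisense to Tmem198b, and 157 of 7237 of Mmp12 antisense to Mmp1b. Mmp3 and Mmp10, the closest pair of members, shared 81.2% identity over 1338 bases (BLAST 2.17.0).

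Estimated counts and TPM were summed per gene. Counts were rounded and tested with DESeq2 1.42.0 (Wald or likelihood ratio test, length offset as tximport passes it, 12 libraries in 1 fit, group as the only factor) in R 4.3.3, on the 15459 genes that reached 10 reads in 3 or more libraries. P-values were adjusted over all genes by the Benjamini-Hochberg method, with a threshold of 0.05. Fold changes are unshrunken and 95% intervals are Wald intervals. The functions were tested on simulated data. The members and lists were chosen with earlier results of these data known. All members are named. Full statistics are given where a member had an unadjusted p under 0.05 or groups that did not overlap, and list genes are named where their unadjusted p was under 0.05, at most 3 per list and contrast, for contrasts in which a member had one. Under the same rule the 3 most correlated genes of each member are named. Outside this rule, Fosl1 is also named in the miR-142-5p tumours against ctrl, where no member had an unadjusted p under 0.05. Chi-square statistics of counts per degree of freedom were 13.6 to 59.1 for the 12 pairs of libraries within groups, so that none was a copy. The alternatives were edgeR 4.0.16, TMM factors, no filter (24230 genes), at least 50 reads in every library (11722 genes), no offset, only 2 groups, a replicate block, the library set as a term, protein-coding genes only (14706), a threshold of 0.1, each tumour left out, and, added after seeing the data, miR-142-5p tumour 3 and miR-183-5p tumour 3 left out together. Relations were computed in Python 3.11.15.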

Additional observations from a re-analysis of the deposited data

Results flagged for a closer look

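The effect against ctrl differed between miRNA groups for 2 members. For Mmp3 the effect of miR-183-5p minus that of miR-142-5p was 1.40 on the log2 scale (DESeq2 adjusted p = 0.00301), with miR-183-5p at 0.91 above ctrl and miR-142-5p at -0.49. For Mmp13 the same difference was 1.25 (DESeq2 adjusted p = 0.00301), with 0.97 and -0.28 against ctrl. The difference itself was tested, in the contrast between the miR-183-5p and miR-142-5p tumours. All 3 miR-183-5p tumours lay above all 3 ctrl tumours for both genes, and for Mmp3 all 3 miR-142-5p tumours lay below them. In miR-183-5p tumour 3, which had the highest level of both genes, the skeletal muscle sum was 373.6 TPM and the macrophage sum 1786 TPM, the lowest of the 12, and without that tumour both differences kept their direction but not the call.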

How the results depend on the processing

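Between the miR-183-5p and miR-142-5p tumours, 2 members were called in the reported fit. The count was 0 with edgeR, 0 with the library set as a term, 0 without both tumours that stand apart (miR-142-5p tumour 3 and miR-183-5p tumour 3, a setting chosen after seeing the data), and 0 to 4 when 1 tumour was left out. The set term and the fit without both tumours each set aside miR-183-5p tumour 3, so they are not separate checks. Over the 4 groups at once it was 2, and 0 with edgeR, 0 without both tumours that stand apart and 0 to 2 with 1 tumour left out, where Mmp3 was lost without miR-142-5p tumour 3 (adjusted p = 0.115) and Mmp13 without miR-183-5p tumour 1 (0.0608), and both without miR-183-5p tumour 3 (0.0935 and 0.166). Against ctrl, 2 members were called in the miR-183-5p tumours when only these 2 groups were fitted, in a fit that called 36 of 15459 genes. With 1 tumour left out it was 0 to 1, the call being Mmp13 without miR-183-5p tumour 2, in a fit that called 13 genes. Between miR-142-5p and miR-222-3p the count was 0 to 1 with 1 tumour left out. The call was Mmp3 without miR-222-3p tumour 1 (log2 -1.21, DESeq2 adjusted p = 0.00129), in a fit that called 9 genes. With the replicate block, 2 members were called between miR-183-5p and miR-142-5p, Mmp3 (adjusted p = 0.00237) and Mmp13 (0.00079), and no count of called members changed. Deviations of same-numbered tumours had a mean correlation of -0.0449 over 18 pairs of libraries (0.0223 over 36 pairs with different numbers). With 3 tumours per group this cannot tell whether same-numbered tumours shared an experiment, which the labels do not say.

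Of the 45 pairs of members, 17 passed in the reported relations, 7 within the 8 libraries of the larger set and 3 as deviations from group means. Fewer tumours or degrees of freedom enter these, and the cause was not tested otherwise. None of the member differences with an unadjusted p under 0.05 changed sign in any fit. No scaling moved the median log2 difference of all genes by more than 0.1. Calls over all genes between miR-183-5p and miR-142-5p ran from 0 to 408 with 1 tumour left out. The smallest number of reads behind a member's value was 145, and the intervals given are the precision of each difference.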

Other observations

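Salmon divided the level of some members over several annotated transcripts, and the division differed between tumours. The processed transcript Mmp9-204 held 9.16% of the summed TPM of Mmp9 in miR-142-5p tumour 3 and 53.4% in ctrl tumour 1, with a mean of 32.2%, and the full protein-coding transcript Mmp9-201 held 46.2% to 87.4%. Mmp12-204, annotated as a target of nonsense-mediated decay, held 39.9% to 56.3% of the TPM of Mmp12. Of Timp1, Timp1-202 held 52.0% to 58.7% and Timp1-201 the rest. Mmp3, Mmp10 and Mmp13 had 1 transcript each, so that their levels did not depend on a division within the gene. The estimated reads of Mmp13 were whole numbers in every tumour. Those of Mmp3 and Mmp10 were not, as with 7217.88 and 2989.12 in miR-183-5p tumour 3, so that Salmon shared out some of their reads between genes. How far this touches their levels and their r was not tested. The order of the tumours by TPM and by normalised count had a Spearman's rho of 0.99 for Mmp9, 0.71 for Mmp14 and 0.74 for Mmp19, as a description over 12 tumours.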
